A study of Arabidopsis thaliana with 12 samples.

Results

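The genes described here were those whose mean expression with pakerine and photorespiratory stress combined was at least 2-fold above that of every other group once 1 CPM was added to each mean. They were chosen on the authors' group means in CPM, the reads of a gene scaled to the counted reads of its library, as a log2 difference of at least 1 between Pakerine + RGCL and the highest of the other 3 groups. The rule found 17 of 21882 genes (0.0777%). The higher level with both treatments is therefore what selected these genes and not a result, and no test is given for it.

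RNA was sequenced from leaf material of cat2-2 seedlings of Arabidopsis thaliana, a mutant deficient in the peroxisomal catalase CAT2, in 4 groups of 3 biological replicates. All plants carried cat2-2, so no wild type enters any comparison. Reads of CAT2 itself were counted in every group, with means from 19.5 CPM in DMSO to 108 CPM in Pakerine + RGCL. After 7 days in liquid medium the seedlings received either 10 µM pakerine, a sulfonamide studied for its effect on the stress phenotype of this mutant, or the solvent DMSO. The groups DMSO and Pakerine were harvested after 4 days in 16 h light and 8 h dark. The groups DMSO + RGCL and Pakerine + RGCL then spent a further 2 days in sealed plates under 24 h light (restricted gas exchange and continuous light, RGCL). Stressed plants were thus also 2 days older and had 2 more days with pakerine or DMSO. Stress, age and time of exposure cannot be told apart. For 6 samples, those of the 2 single-treatment groups, the title names one of these groups and the treatment fields name the other. The values follow the group names in the deposited table's own columns. Under those names a list of 15 salicylate genes summed to 107 CPM in DMSO and 85.7 CPM in Pakerine. The sum was 366 CPM in DMSO + RGCL and 342 CPM in Pakerine + RGCL, both columns named for stress. The list was chosen with earlier results of these data known, so it is no independent check of the names.

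Photorespiration releases H2O2 in leaf peroxisomes, where catalase normally removes it, and cells lacking CAT2 respond to the excess with oxidative stress and defence programmes. Plants handle H2O2 through ascorbate, which monodehydroascorbate reductase regenerates, and through class III peroxidases, secreted haem enzymes that oxidise wall phenolics. Camalexin, the main indolic phytoalexin of Arabidopsis, is made from tryptophan by a chain of cytochromes P450 that is switched on by pathogens and by oxidative damage. Both of these branches were represented among the 17 genes, together with transporters, methyltransferases and jasmonate-responsive enzymes.

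The deposited table holds group means only. Each library contributes whole reads, so the 12 library sizes, between 28472236 and 33512708 counted reads, could be recovered from the steps of the low values. Every mean above 0 and below 10 CPM then resolved into exactly 1 set of 3 read counts. Libraries are called largest, middle and smallest by their size within a group, because they could not be tied to sample numbers. All 12 libraries were recovered for 12 of the 17 genes and for 8630 genes of the table. In Pakerine + RGCL the other 5 genes allow more than 1 set of reads, and for these the group mean is given.

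The 17 genes were weakly expressed. Their group means had a median of 0.870 CPM in DMSO, 1.77 CPM in DMSO + RGCL, 1.70 CPM in Pakerine and 6.91 CPM in Pakerine + RGCL, and 10 of them were below 1 CPM in DMSO. Corrected for transcript length, the most abundant with both treatments was AT5G44568, an uncharacterised protein, at 28.3 CPM per kb, and the least abundant was CYP71A13 at 2.05 CPM per kb. The combined level was 1.16 to 7.39 times the sum of the levels in DMSO + RGCL and Pakerine, with a median of 2.52, and since the rule itself puts this ratio above 1 only its size varied freely. In 11 of the 12 fully recovered genes the 3 Pakerine + RGCL libraries lay above all 9 other libraries, against 4.52% of the 8630 recovered genes. These libraries were part of the means that chose the genes, so that count describes the selection.

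**Figure D1:**
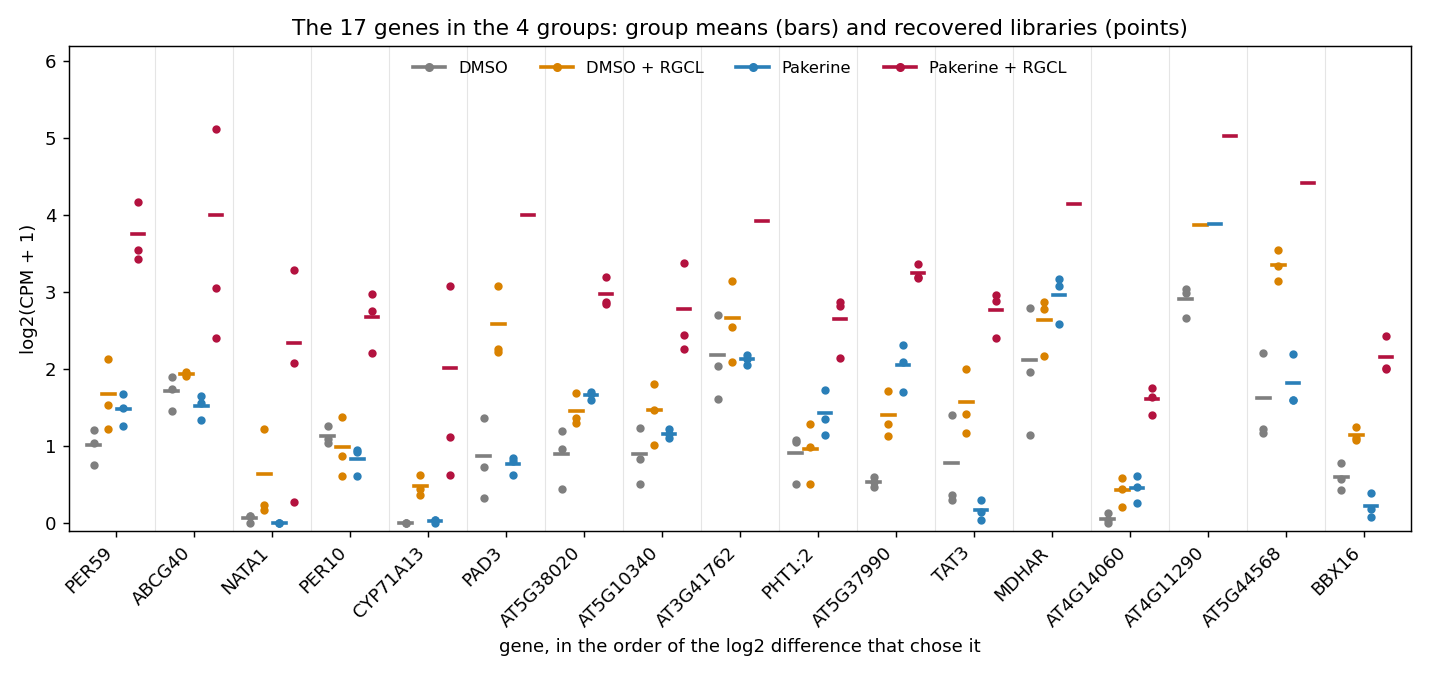
Expression of the 17 genes on the log2(CPM + 1) scale, in the order of the log2 difference that chose them. Bars are group means over 3 libraries and points are single recovered libraries, left out where more than 1 set of reads is possible. ABCG40 and CYP71A13 have 1 Pakerine + RGCL library far above the others, and those of NATA1 are widely spread, while AT5G37990 and AT5G38020 have 3 close ones.

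Of the 17 genes, 3 encode class III peroxidases, PER59, PER10 and AT4G11290. PER59 (AT5G19890, minus strand of chromosome 5, 6724076 to 6725966 in TAIR10.1, 4 exons) was the gene with the largest selecting difference, a log2 of 2.08. Its libraries, from largest to smallest, had 1.31, 0.689 and 1.05 CPM in DMSO, 1.89, 3.38 and 1.35 CPM in DMSO + RGCL, 1.82, 1.4 and 2.21 CPM in Pakerine, and 10.8, 9.77 and 17.1 CPM in Pakerine + RGCL. The lowest library with both treatments was therefore above the highest of the other 9, and the 3 of them were within 2-fold of each other.

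PER10 (AT1G49570, plus strand of chromosome 1, 18346958 to 18349049 in TAIR10.1, 4 exons) had 1.15, 1.41 and 1.05 CPM in the DMSO libraries and 0.840, 1.61 and 0.526 CPM in DMSO + RGCL. In Pakerine it had 0.895, 0.529 and 0.931 CPM, all below the lowest DMSO library. With both treatments the libraries had 3.61, 5.79 and 6.87 CPM, again without overlap. PER10 was the only member whose highest other group was DMSO, and the only one whose mean under stress alone was below DMSO. The log2 difference from DMSO was -0.15 with stress alone and -0.30 with pakerine alone. By limma neither passed the threshold, with an adjusted p of 0.564 for stress and 0.372 for pakerine.

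AT4G11290 was the most strongly expressed of the 3 peroxidases, with 23.7 CPM per kb with both treatments against 9.15 in PER59 and 3.59 in PER10, and its means with either single treatment were close. Its mean was 6.51 CPM in DMSO, 13.6 CPM in DMSO + RGCL, 13.8 CPM in Pakerine and 31.8 CPM in Pakerine + RGCL. The combined level was 1.16 times the sum of the single-treatment levels, the lowest such ratio of the 17 genes. PER59 and PER10 had ratios of 3.12 and 3.05.

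The 300 bases before the annotated start of PER59 and PER10 are printed because both are peroxidases whose combined libraries did not overlap the others. They were read from the RefSeq assembly TAIR10.1, 5′ to 3′ on the strand of the gene. Capitals mark every match on either strand to the letters searched, which were TTGAC (W-box core), GCCGCC (GCC-box), TGACG (as-1 core), CACGTG (G-box) and TGTCTC (auxin response element). The PER59 stretch is chr5:6725967-6726266, minus strand, and the PER10 stretch is chr1:18346658-18346957, plus strand.
PER59: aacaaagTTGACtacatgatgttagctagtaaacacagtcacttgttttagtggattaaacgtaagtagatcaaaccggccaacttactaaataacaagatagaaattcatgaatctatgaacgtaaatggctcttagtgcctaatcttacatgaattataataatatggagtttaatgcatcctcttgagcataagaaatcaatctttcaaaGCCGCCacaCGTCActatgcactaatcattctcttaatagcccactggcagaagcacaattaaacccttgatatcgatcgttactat
PER10: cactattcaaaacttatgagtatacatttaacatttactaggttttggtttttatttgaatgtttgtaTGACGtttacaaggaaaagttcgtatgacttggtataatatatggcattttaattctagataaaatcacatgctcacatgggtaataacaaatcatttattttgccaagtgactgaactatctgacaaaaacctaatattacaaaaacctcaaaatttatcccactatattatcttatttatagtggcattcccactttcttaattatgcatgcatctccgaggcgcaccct
The PER59 stretch held 1 match each to the W-box core, the GCC-box and the as-1 core, and the PER10 stretch held a single match to TGACG. The as-1 core was present in 6 of the 17 upstream stretches (35.3%) and in 21.9% of the 21730 such stretches of genes in the table. GCCGCC was present in 1 of 17, against 2.41% of all. Such matches are letters in a window and no evidence of binding.

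The rest of the peroxidase family is given beside these 3 genes, which the rule itself sets above most of their relatives. The table holds 61 genes annotated as class III peroxidases, of which 26 (42.6%) had their highest mean with both treatments. The median of the selecting log2 difference over the 61 was -0.10. Over all 21882 genes the corresponding values were 21.9% and -0.13. Of the 61, 16 were at least a log2 of 1 higher with pakerine alone, where the share over all genes was 1.38%. The closest relatives in pattern outside the rule were Prx37, with 5.71, 20.7, 10.2 and 40.6 CPM in DMSO, DMSO + RGCL, Pakerine and Pakerine + RGCL, and its neighbour in numbering AT4G08780, with 0.282, 0.839, 0.706 and 2.38 CPM. Their selecting log2 differences were 0.94 and 0.88.

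**Figure D2:**
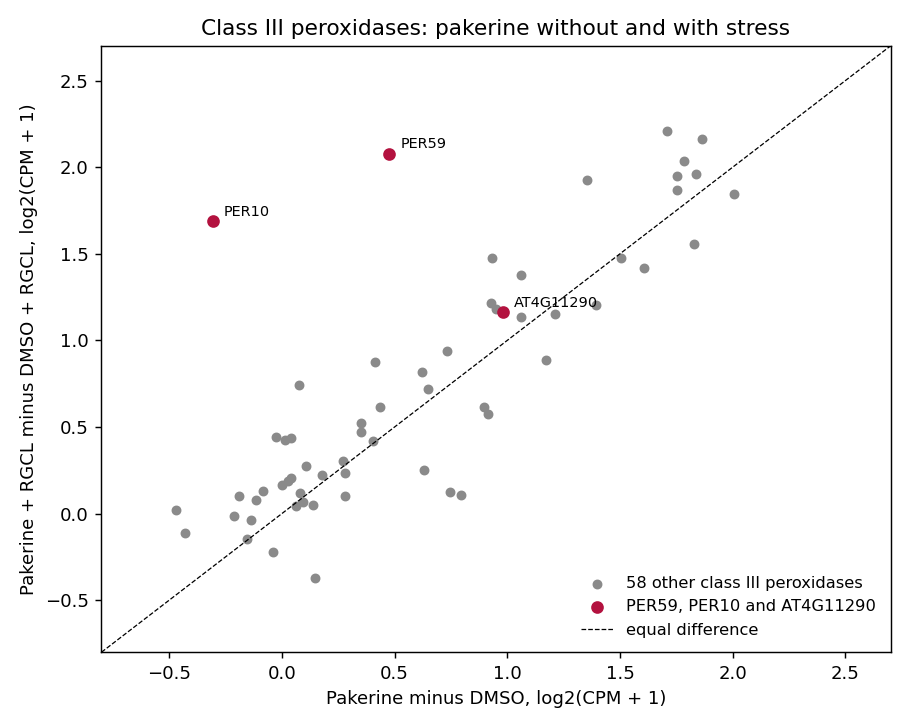
The 61 class III peroxidases of the table by their log2 difference with pakerine in the absence (horizontal) and presence (vertical) of stress, from group means on the log2(CPM + 1) scale. On the dashed line the differences are equal. PER59 and PER10 lie far above it at 2.08 and 1.69 with stress, while AT4G11290 at 1.16 lies close to it.

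Many peroxidases and the phosphate transporters are known for root expression, and the samples were labelled as leaf. A list of 18 root hair genes was detected in full, with none at 0 in any group, and its summed level was 101 CPM in DMSO, 60.8 CPM in DMSO + RGCL, 365 CPM in Pakerine and 300 CPM in Pakerine + RGCL. Thus 17 of the 18 were at least a log2 of 1 higher with pakerine alone, against 1.38% of all genes. In the other root lists 2 of 10 Casparian strip and endodermis genes (median log2 difference 0.66), 2 of 12 suberin genes (0.53) and 1 of 9 root tip and stele genes (0.28) were. No root list held a member of the set, and 1 of the 18 root hair genes was highest with both treatments. A list of 8 green leaf genes had a summed level of 27398 to 29270 CPM. The part of root material in the peroxidase and transporter levels was not tested, and fewer cells of a type cannot be told apart from less RNA per cell.

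MDHAR (AT3G09940), which regenerates ascorbate from monodehydroascorbate, was the member of the ascorbate branch. Its mean was 3.37 CPM in DMSO, 5.26 CPM in DMSO + RGCL, 6.82 CPM in Pakerine and 16.7 CPM in Pakerine + RGCL. The libraries of DMSO spread from 1.21 to 5.97 CPM and overlapped those of both single treatments, at 3.52 to 6.33 CPM with stress and 5.00 to 8.00 CPM with pakerine. The combined libraries allow 2 sets of reads for this gene. In 1 set they had 15.2 to 19.8 CPM. The other puts 97.3% of the CPM in the largest library and leaves 0.591 and 0.744 CPM in its partners, below every DMSO library.

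PAD3 and CYP71A13 represented camalexin synthesis. CYP71A13 makes indole-3-acetonitrile on the way to camalexin, and PAD3 carries out the last steps. CYP71A13 (AT2G30770, minus strand of chromosome 2, 13109909 to 13111988 in TAIR10.1) had 0 reads in all 3 DMSO libraries, of 89463471 counted reads. In DMSO + RGCL its libraries had 0.540, 0.361 and 0.296 CPM, and in Pakerine 0.0298, 0 and 0.0345 CPM, which is 2 reads. With both treatments they had 0.551, 7.44 and 1.18 CPM.

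The middle Pakerine + RGCL library held 81.1% of the CPM of CYP71A13 in its group. The largest library of that group had 18 reads, as many as the largest library of DMSO + RGCL, so that 2 groups touched without overlapping. The combined mean of 3.06 CPM was 7.66 times that of DMSO + RGCL, the highest other group. Against a floor of 3 reads over the DMSO group (0.0335 CPM), the combined mean was at least 91.2-fold higher, and without the middle library at least 25.9-fold. The selecting log2 difference of 1.54 then became 0.42. Of the transcript's 75-base stretches 18.2% also occur in the overlapping gene AT2G30766, which had 0.158 CPM with both treatments, so reads shared by these genes are uncertain.

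PAD3 (AT3G26830, plus strand of chromosome 3, 9887917 to 9889791 in TAIR10.1, 2 exons) had 0.656, 0.262 and 1.58 CPM in DMSO, 3.81, 3.68 and 7.5 CPM in DMSO + RGCL, and 0.746, 0.809 and 0.552 CPM in Pakerine. Stress alone thus separated from DMSO and pakerine alone did not. With both treatments the mean was 15.1 CPM, and the 2 possible sets of reads place 66.6% or 75.2% of it in the middle library. Under either set at least 1 combined library lay below the highest DMSO + RGCL library.

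The upstream stretches of the camalexin genes are printed in the same way, since both were highest in the same library. The CYP71A13 stretch is chr2:13111989-13112288, minus strand, before a gene model that RefSeq marks as partial, so its end is not a mapped transcription start. The PAD3 stretch is chr3:9887617-9887916, plus strand.
CYP71A13: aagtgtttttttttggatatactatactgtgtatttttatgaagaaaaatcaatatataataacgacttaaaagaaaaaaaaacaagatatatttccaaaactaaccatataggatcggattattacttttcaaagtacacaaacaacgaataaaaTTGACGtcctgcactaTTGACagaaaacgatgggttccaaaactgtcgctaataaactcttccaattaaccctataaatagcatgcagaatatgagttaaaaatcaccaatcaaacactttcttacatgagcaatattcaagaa
PAD3: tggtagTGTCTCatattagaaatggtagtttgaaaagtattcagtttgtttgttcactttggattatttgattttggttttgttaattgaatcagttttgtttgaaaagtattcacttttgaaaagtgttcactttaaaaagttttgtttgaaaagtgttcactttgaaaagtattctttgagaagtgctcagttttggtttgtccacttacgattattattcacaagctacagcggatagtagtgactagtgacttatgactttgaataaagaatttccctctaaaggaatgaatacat
The CYP71A13 stretch held 2 matches to TTGAC, the first of which overlaps a TGACG, and the PAD3 stretch held 1 match to TGTCTC and none to TTGAC. The W-box core occurred in 8 of the 17 upstream stretches (47.1%) and in 50.5% of all. TGTCTC occurred in 2 of the 17 (11.8%) and in 12.9% of all. CACGTG occurred in 1 of the 17, that of AT5G37990 (5.88%), and in 7.77% of all.

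All 5 camalexin genes on the list, of which the rule itself chose PAD3 and CYP71A13, had their highest mean with both treatments, where the share over all genes was 21.9%. The margin of the other 3 was below the limit of the rule. The tryptophan-consuming enzymes CYP79B2 and CYP79B3 had 22.3 and 36.4 CPM in DMSO and 84.0 and 64.9 CPM with both treatments. Single treatments were already above DMSO. CYP79B2 had 57.1 CPM in DMSO + RGCL and 33.4 CPM in Pakerine, and CYP79B3 had 43.0 and 52.3 CPM. CYP71A12, a close relative of CYP71A13, had 6.12 to 9.03 CPM in DMSO + RGCL and 8.31 to 10.8 CPM in Pakerine + RGCL. Its middle library with both treatments had 8.31 CPM and was the lowest of the 3. The high middle library of CYP71A13 and PAD3 was therefore not shared by this gene.

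ABCG40 and NATA1 also had uneven combined libraries with the middle one highest. ABCG40 (AT1G15520, minus strand of chromosome 1, 5331858 to 5338326 in TAIR10.1) is a plasma membrane ABC transporter, also called PDR12. Its libraries had 2.36, 1.74 and 2.74 CPM in DMSO, 2.76, 2.92 and 2.83 CPM in DMSO + RGCL, 1.97, 1.52 and 2.14 CPM in Pakerine, and 4.29, 33.7 and 7.31 CPM in Pakerine + RGCL. The combined libraries did not overlap the others, but 74.4% of their CPM was in the middle one. Without it the selecting log2 difference fell from 2.07 to 0.82.

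NATA1 (AT2G39030, plus strand of chromosome 2, 16298110 to 16299205 in TAIR10.1, 1 exon) acetylates ornithine and is induced by jasmonate. It had 0, 0.0656 and 0.0702 CPM in DMSO, 0.180, 0.131 and 1.35 CPM in DMSO + RGCL, no reads in Pakerine, and 0.214, 8.81 and 3.25 CPM in Pakerine + RGCL. It was the fully recovered gene in which the groups overlapped, since the largest combined library was below the smallest DMSO + RGCL library. The combined mean of 4.09 CPM was 7.39 times that of DMSO + RGCL, the highest other group. Against a floor of 3 reads over the Pakerine group (0.0317 CPM) the combined mean was at least 129-fold higher, and without the middle library at least 54.6-fold. The log2 difference then fell from 1.71 to 0.81.

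The middle Pakerine + RGCL library stood at least a log2 of 1 above both others of its group in 9 of the 8630 recovered genes, and 3 of these were ABCG40, NATA1 and CYP71A13. In the other 11 libraries the same count was between 0 and 11 genes. The 6 others were AOX1D, TPS04, GSTU3, DIN2, AT5G52050 and AT5G64190. AOX1D, a mitochondrial alternative oxidase, had 1.13, 5.32 and 1.32 CPM, and the glutathione transferase GSTU3 had 0.184, 2.89 and 0.575 CPM. The part of this library in the choice of the 4 genes can be read directly. Without it 12 or 13 of the 17 genes still met the rule, depending on the set of reads for AT4G11290, and the 4 that no longer did under any set were ABCG40, NATA1, CYP71A13 and PAD3. Other members depended on other libraries. Without the largest Pakerine + RGCL library the difference became 0.88 in AT5G10340, 0.91 in AT3G41762 and 0.86 in BBX16, and without the smallest it became 0.99 in AT5G44568, with the most even set of reads for AT3G41762 and AT5G44568.

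**Figure D3:**
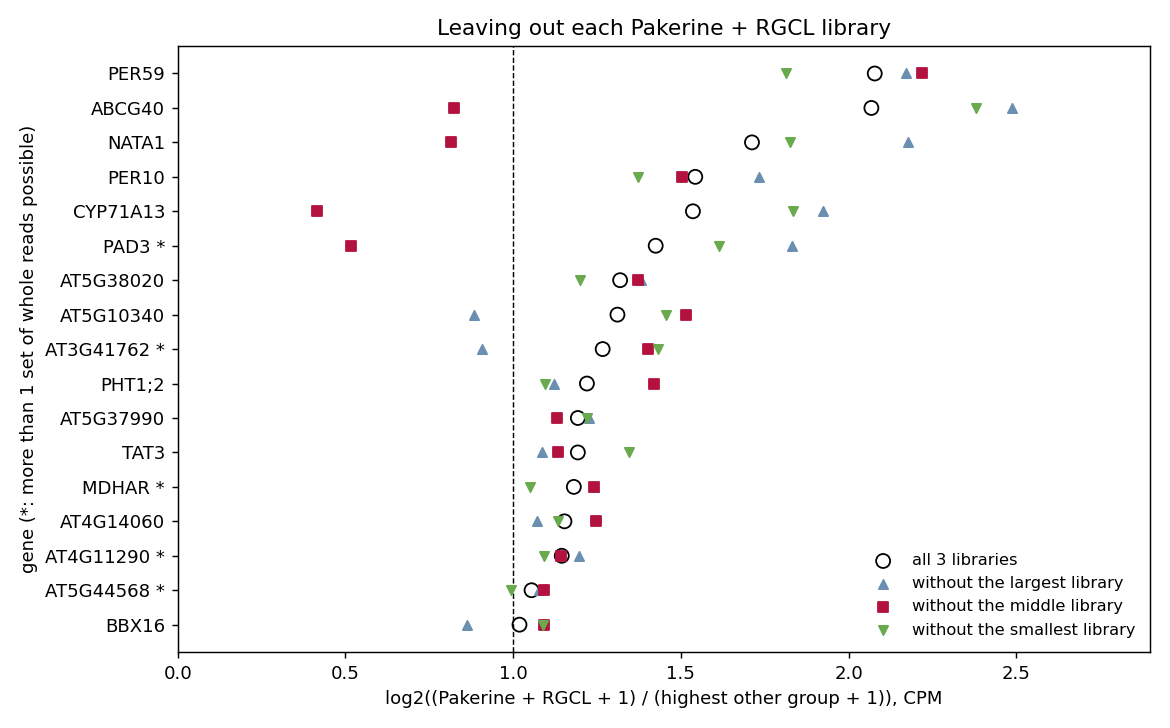
The log2 difference that chose each gene with all 3 Pakerine + RGCL libraries (open circles) and without each of them in turn (filled symbols), with the limit of 1 as a dashed line. Genes with a star allow more than 1 set of whole reads, of which the most even one is drawn. ABCG40, NATA1, CYP71A13 and PAD3 cross the limit without the middle library, AT5G10340, AT3G41762 and BBX16 without the largest and AT5G44568 without the smallest, and PER59 and PER10 stay at 1.37 or more.

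A list of 13 genes of xenobiotic response held ABCG40 as its single member. With stress alone 5 of the 13 were at least a log2 of 1 higher and none was lower, against 2.85% and 1.03% of all genes. With pakerine alone none was higher and 1 was lower, against 1.38% and 0.119%. The median of the selecting log2 difference over the 13 genes was -0.08. ABCG40 itself had 2.07. The cytochrome P450 CYP81D11 of this list, for example, had 322 CPM in DMSO + RGCL and 318 CPM in Pakerine + RGCL.

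AT5G37990 and AT5G38020 encode S-adenosylmethionine-dependent methyltransferases of the SABATH family, whose enzymes methylate small carboxylic acids. Among the 12 members tested by limma they had the largest differences with pakerine alone. By group means AT4G11290 (log2 0.98) and MDHAR (0.84), which were outside that fit, exceeded AT5G38020 (0.76). They lie on the minus strand of chromosome 5 at 15133867 to 15135169 and 15165642 to 15167864 in TAIR10.1, 30472 bases apart, with 4 annotated genes between them. AT5G37990 had 0.524, 0.394 and 0.457 CPM in DMSO, 1.2, 2.30 and 1.45 CPM in DMSO + RGCL, 2.27, 3.98 and 3.27 CPM in Pakerine, and 8.12, 9.33 and 8.19 CPM in Pakerine + RGCL. Its libraries separated each of the 3 treated groups from DMSO, with both treatments highest.

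In the limma fit AT5G37990 rose with pakerine alone by a log2 of 1.5 ± 0.17 (SE, n = 3 libraries per group, adjusted p = 3.3e-05), and with stress alone by 0.84 ± 0.17 (adjusted p = 0.00116). It was called in both comparisons whichever of the 12 libraries was left out.

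AT5G38020 had 0.950, 0.361 and 1.3 CPM in DMSO, 1.47, 2.23 and 1.58 CPM in DMSO + RGCL, 2.21, 2.02 and 2.27 CPM in Pakerine, and 6.22, 6.32 and 8.19 CPM in Pakerine + RGCL. It rose with pakerine alone by a log2 of 0.79 ± 0.18 (SE, n = 3, limma adjusted p = 0.00367) and with stress alone by 0.59 ± 0.18 (adjusted p = 0.0193). The stress call was lost without the middle DMSO library and without the middle DMSO + RGCL library.

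Of the genes between the methyltransferases, 3 were in the table, and none of them met the rule. AT5G38000, an annotated zinc-binding dehydrogenase, had 0.793 to 0.934 CPM in the Pakerine libraries and 1.41 to 1.66 CPM with both treatments. AT5G38010, an annotated glycosyltransferase, had 1.37 to 1.81 CPM and 1.59 to 2.23 CPM in the same groups, which overlapped. Among 107 S-adenosylmethionine-dependent methyltransferases of the table, 19 (17.8%) were highest with both treatments, against 21.9% of all genes, and 2 (1.87%) were at least a log2 of 1 higher with pakerine alone, against 1.38%.

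TAT3 and BBX16 had the most negative differences with pakerine alone, relative to DMSO, of the 17 genes. TAT3 (AT2G24850), a jasmonate-responsive tyrosine aminotransferase, had 0.229, 0.295 and 1.65 CPM in DMSO, 3.03, 1.68 and 1.25 CPM in DMSO + RGCL, 0.239, 0.0311 and 0.103 CPM in Pakerine, and 6.80, 6.38 and 4.30 CPM in Pakerine + RGCL. The smallest DMSO library was far above its partners and overlapped the stressed group, while the largest DMSO library lay below the highest of Pakerine. The limma difference was 0.84 ± 0.25 for stress (SE, n = 3, adjusted p = 0.0194) and -0.53 ± 0.25 for pakerine (adjusted p = 0.184). The stress call was lost without the largest or the middle DMSO library and without the largest DMSO + RGCL library.

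BBX16 (AT1G73870), a B-box zinc finger protein with a CCT domain, had 0.721, 0.492 and 0.351 CPM in DMSO, 1.38, 1.15 and 1.12 CPM in DMSO + RGCL, 0.0597, 0.311 and 0.138 CPM in Pakerine, and 4.41, 3.02 and 3.04 CPM in Pakerine + RGCL. No 2 of the 4 groups overlapped. It rose with stress alone by a log2 of 0.55 ± 0.15 (SE, n = 3, limma adjusted p = 0.0102). The stress call was lost without the smallest DMSO library. The limma difference with pakerine alone was -0.38 ± 0.15 (adjusted p = 0.0909). In a fit without Pakerine + RGCL the pakerine difference passed the threshold, with an adjusted p of 0.0407.

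PHT1;2 (AT5G43370) takes up phosphate in the root. It had 1.11, 0.427 and 1.09 CPM in DMSO, 0.990, 1.45 and 0.428 CPM in DMSO + RGCL, 1.22, 1.56 and 2.31 CPM in Pakerine, and 6.10, 3.42 and 6.33 CPM in Pakerine + RGCL. Of its transcript's 75-base stretches 38.7% also occur in the tandem relative PHT1;1, which had 17.9, 20.7, 30.8 and 38.0 CPM in DMSO, DMSO + RGCL, Pakerine and Pakerine + RGCL. How the authors' counting divided shared reads is uncertain, and PHT1;1 itself had a selecting log2 difference of 0.30. In a list of 9 phosphate starvation genes without PHT1;2, 8 were highest with both treatments, against 21.9% of all genes, with a median selecting difference of 0.30. With stress alone 2 were at least a log2 of 1 higher, against 2.85%.

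The other members are less well described. AT5G10340, an F-box protein, had 0.426 to 1.37 CPM in DMSO, 1.02 to 2.52 CPM in DMSO + RGCL, 1.15 to 1.34 CPM in Pakerine and 3.80 to 9.40 CPM in Pakerine + RGCL, and its largest combined library held 53.3% of that group. Without that library it did not meet the rule, as given above. AT4G14060, annotated as a polyketide cyclase and lipid transport protein, had 0 to 0.0983, 0.164 to 0.510, 0.207 to 0.529 and 1.65 to 2.39 CPM in the same order of groups. It was called by limma with stress (0.36 ± 0.13, adjusted p = 0.0416, n = 3) and with pakerine (0.39 ± 0.13, adjusted p = 0.0370). The pakerine call was lost without any 1 of the DMSO libraries and without the largest or the middle Pakerine library. The stress call was lost without any 1 of the DMSO libraries, without the largest or the smallest DMSO + RGCL library and without the largest Pakerine library.

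The remaining 2 members encode uncharacterised proteins. AT5G44568 had means of 2.08, 9.27, 2.55 and 20.3 CPM in DMSO, DMSO + RGCL, Pakerine and Pakerine + RGCL. Its DMSO + RGCL libraries at 7.90 to 10.7 CPM lay above those of DMSO at 1.25 to 3.65 CPM. Its combined libraries allow 2 sets of reads, at 19.2 to 22.1 CPM or with 87.35% of the CPM in the largest library. AT3G41762 had 3.57, 5.33, 3.38 and 14.2 CPM. Since 41.4% of its 75-base stretches occur in other loci, among them AT2G01008 with 3.76 CPM in Pakerine + RGCL, its counts are uncertain.

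The rule used the means of DMSO, DMSO + RGCL and Pakerine through the highest of them, so it caps these levels from above, and the values of each treatment alone are given as a description. DMSO + RGCL was the highest other group for 10 genes, Pakerine for 6 and DMSO for 1. The log2 difference of stress alone from DMSO had a median of 0.56 over the 17 genes and of -0.05 over all genes, and 16 of the 17 were above 0. AT5G44568 and PAD3 were the 2 genes at least a log2 of 1 higher, where the share over all genes was 2.85%, and none was a log2 of 1 lower, where the share over all genes was 1.03%.

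With pakerine alone the median difference was 0.20 over the 17 genes and -0.01 over all genes, and the members divided into 10 above DMSO and 7 below. AT5G37990 was the only gene at least a log2 of 1 higher, where the share over all genes was 1.38%, and none was a log2 of 1 lower, where the share was 0.119%. The values ran from -0.62 in TAT3 to 1.52 in AT5G37990. These comparisons share the DMSO libraries.

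**Figure D4:**
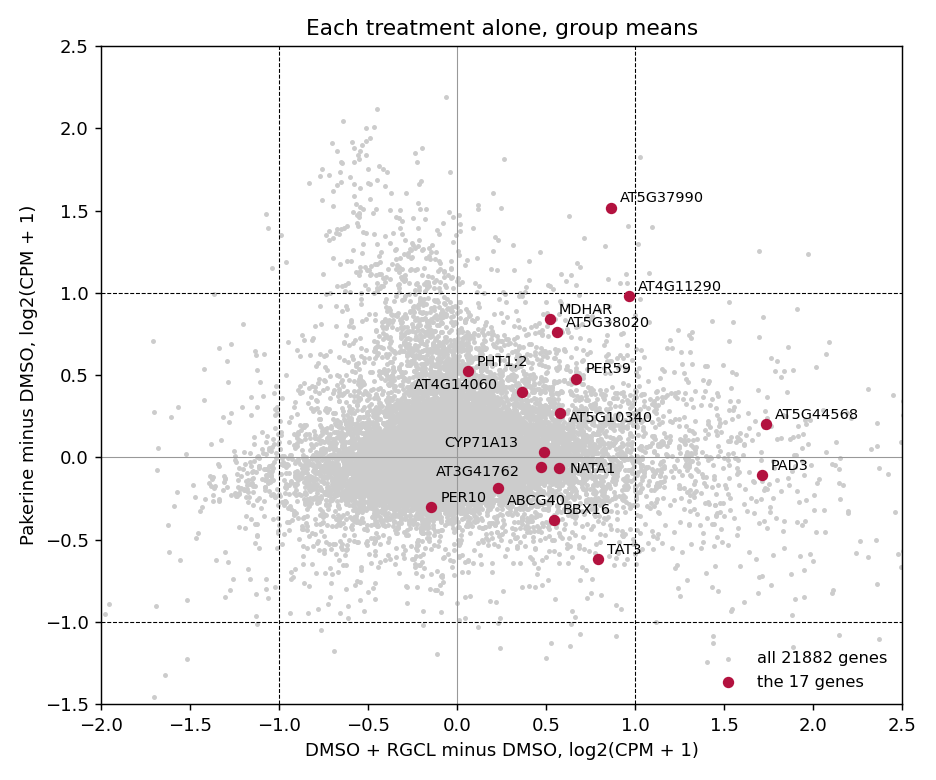
Log2 difference from DMSO with stress alone (horizontal) and with pakerine alone (vertical), from group means on the log2(CPM + 1) scale. Grey points are all 21882 genes, of which 39 fall outside the axes, red points are the 17 genes, and dashed lines mark a difference of 1. Of the 17 genes, 16 lie to the right of 0, whereas 10 lie above 0 and 7 below.

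The recovered libraries allowed a test of these single treatments for 12 of the 17 genes, with limma over the 8630 genes recovered in all libraries. This fit included Pakerine + RGCL, so the spread of the libraries that chose the genes enters the SE of these tests. The rule also used the means of DMSO, DMSO + RGCL and Pakerine. The counts and adjusted p-values, here and above, therefore describe chosen genes and are no independent test. With stress alone 6 of the 12 rose and none fell, at a Benjamini-Hochberg adjusted p of at most 0.05, where 11.9% of the tested genes rose and 14.6% fell. They were AT5G37990, BBX16, TAT3, AT5G38020, PER59 and AT4G14060. PER59 rose by a log2 of 0.63 ± 0.22 (SE, n = 3 libraries per group, adjusted p = 0.0381). Without the middle or the smallest DMSO library, or the largest or the middle DMSO + RGCL library, PER59 was not called. The count of genes called fell to 2 without the middle DMSO library, to 3 without the smallest, and to 3 without the largest DMSO + RGCL library. AT5G37990 was the only one called with stress whichever of the 12 libraries was left out.

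With pakerine alone 3 of the 12 rose, AT5G37990, AT5G38020 and AT4G14060, and none fell, where 15.5% of the tested genes rose and 2.28% fell. At an unadjusted p of at most 0.05, 7 of the 12 were higher and none lower with stress, where 15.7% of the tested genes were higher and 21.6% lower. With pakerine 5 were higher and BBX16 was lower, where 22% were higher and 5.64% lower. The tested genes are those in which each of the 12 libraries resolved to 1 set of reads, mostly genes with low means. A fit without Pakerine + RGCL, chosen after seeing the data, could test 16 of the 17 genes. It called 10 higher and none lower with stress, where 12.1% of the 8690 genes in that fit were higher and 14% lower. With pakerine it called 4 higher and 1 lower, where 15.6% were higher and 2.3% lower. Among those added with stress were PAD3 (1.72 ± 0.24, n = 3, adjusted p = 7.38e-05) and AT5G44568 (1.81 ± 0.23, adjusted p = 2.63e-05). Also added were CYP71A13 and AT5G10340, which the limma fit of all 4 groups had tested without calling. For CYP71A13 (log2 0.48) the SE was 0.36 with all 4 groups (adjusted p = 0.36) and 0.072 here (adjusted p = 1.3e-04). For AT5G10340 (log2 0.57) it was 0.25 (adjusted p = 0.105) and 0.20 (adjusted p = 0.0453).

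The limit of the rule falls in a continuous range of values. Just inside were AT4G11290 at 1.14, AT5G44568 at 1.06 and BBX16 at 1.02. Just outside were NSP3, a nitrile specifier protein, at 0.98, the extensin-like AT2G43150 at 0.96 and the beta-glucosidase BGLU7 at 0.95. NSP3 had 2.93 to 3.86 CPM with both treatments and at most 1.41 CPM in the other libraries, a separation of the same kind as in the genes inside the limit.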

How the data were processed

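Leaf RNA of cat2-2 seedlings was sequenced as 75-base single-end reads. Trimming by the authors used Trim Galore 0.3.3, alignment to TAIR10 used TopHat2 2.1.0, and read counting used featureCounts (Subread 1.4.6), per the labels and methods. Genes above 0.12 CPM in at least 3 samples were kept. Each deposited value is a CPM and the authors' mean of 3 libraries. The 4 columns total 999887 to 999914. The table also holds the log2 fold changes, p-values and FDR of the authors' comparisons, which were not used here.

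The rule used log2 differences of mean CPM with a pseudocount of 1 CPM. Such differences understate the change of low genes. Library sizes and whole reads were recovered from the deposited decimals. Every mean between 0 and 10 CPM had 1 solution within the rounding of the table, and higher means often had several. The step was tested on simulated data. Comparisons without Pakerine + RGCL used limma 3.58.1 in R 4.3.3 on log2(CPM + 1) of the recovered libraries, all 4 groups sharing 1 estimate of the spread, with Benjamini-Hochberg adjustment over the 8630 genes tested. The labels call the replicates biological. Gene IDs matched the RefSeq annotation of TAIR10.1 for 21731 of 21882 genes and for all 17 members. Shared stretches are 75-base runs found in another annotated transcript.

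The members and the 13 gene lists were chosen with earlier results of these data known. Genes named in the text were the members, the 12 with the largest selecting difference and the 12 with the highest combined level among them, the first 2 of each functional class, list genes, and 3 genes on each side of the limit. Relatives, neighbouring genes and the genes high in 1 library were chosen after their values were seen. Alternatives were other pseudocounts, a minimum average of 1 CPM, rescaled groups, a log2 limit of 1.5 and leaving out each library.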

Additional observations from a re-analysis of the deposited data

Results flagged for a closer look

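In PER10 the 3 Pakerine libraries lay below the 3 DMSO libraries, a log2 difference of -0.30, while the 3 Pakerine + RGCL libraries lay above the 3 DMSO + RGCL libraries, a log2 difference of 1.69. In BBX16 the corresponding differences were -0.38 and 1.02, again without overlap. Both genes were flagged because the groups separated one way with pakerine in unstressed plants and the opposite way in stressed plants. The rule itself sets the direction in stressed plants. In unstressed plants limma called neither gene, with an adjusted p of 0.372 for PER10 and 0.0909 for BBX16. Only the fit without Pakerine + RGCL called BBX16 (adjusted p = 0.0407). The share of all genes with such a separation was not counted. The difference between the 2 effects was not tested, and the level with both treatments is what chose these genes.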

How the results depend on the processing

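A pseudocount of 0.5 CPM gave 30 genes and one of 0.1 CPM gave 63, both with all 17 among them, and a limit of 1.5 gave 5. Leaving out 1 library kept 13 to 17 of the 17 (11 to 17 over all sets of reads). Group medians of the libraries, an alternative added after seeing the data, kept 13 (10 to 13 over all sets of reads). With the most even sets CYP71A13, AT5G10340, MDHAR and BBX16 were lost. The median stress difference became 1.05 with a pseudocount of 0.1 CPM and ranged from 0.49 to 0.74 without 1 library. The median pakerine difference ranged from 0.02 to 0.39 without 1 library and changed sign to -0.064 among the 5 genes above 1.5. Genes at least a log2 of 1 higher with stress alone became 5 and 10 with pseudocounts of 0.5 and 0.1 CPM, and those higher with pakerine alone became 2 and 4, or 2 with rescaled groups. Those lower with pakerine alone became 2 with 0.1 CPM. The limma counts without 1 library ranged from 2 to 7 with stress and from 2 to 3 with pakerine. The fit without Pakerine + RGCL, which tests 16 genes, called 10 higher with stress, and 1 lower with pakerine. The causes were not tested. No paired analysis was possible because the group means carry no replicate numbers and the recovered libraries cannot be tied to them. With 28472236 to 33512708 reads per library, 1 read adds about 0.01 CPM to a group mean.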

Other observations

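The smallest DMSO library was the highest of its group in several members, which were singled out after their values were seen. It had 1.65 CPM of TAT3 against 0.229 and 0.295 CPM in its partners, 1.58 CPM of PAD3 against 0.656 and 0.262 CPM, 5.97 CPM of MDHAR against 2.92 and 1.21 CPM, and 3.65 CPM of AT5G44568 against 1.34 and 1.25 CPM. It had 5.51 CPM of AT3G41762 against 2.07 and 3.12 CPM, and 1.37 CPM of AT5G10340 against 0.426 and 0.787 CPM. In contrast, PER10 and BBX16 were lowest there, at 1.05 and 0.351 CPM. PER59, AT5G37990, AT4G11290, PHT1;2 and AT4G14060 lay between their partners there. CYP71A12, outside the set, had 1.09 CPM there against 0.197 and 0.164 CPM. Over the 8630 recovered genes this library was at least a log2 of 1 above both partners in 2, of which TAT3 was 1.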
